A study of Mus musculus with 2 samples.

Results

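The genes described here encode tubulins and microtubule proteins of migrating neurons. They are the 10 genes Dcx, Dclk1, Dclk2, Pafah1b1, Tubb3, Tubb2b, Tuba1a, Map1b, Map2 and Mapt, taken by name from the 32285 genes of the count matrices, and every one of them was found. Microtubules are polymers of alpha- and beta-tubulin that stiffen the leading process of a migrating cortical neuron and guide the movement of its nucleus. Doublecortin and its relatives bind and stabilise them, Lis1 acts on them through the motor dynein, and the classical microtubule-associated proteins bundle them in axons and dendrites. Mutations in several of these genes, among them those of doublecortin, Lis1 and the neuronal tubulins, are known from human malformations of the cortex.

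The data are single-cell RNA libraries from the cortex of 2 mouse embryos at embryonic day 16.5, 1 library per embryo, here called embryo 4 and embryo 5. Both carry the genotype label WT and served as controls of a line with Cre in the Eomes gene, which the titles also name after Mllt3. The labels do not say which alleles these controls carry, and the study's text names C57BL/6J mice. The cortex was dissociated with papain and counted by droplet 3′ sequencing, although the tissue label reads brain hemispheres, and 395 and 256 cells carried markers of neurons of the lateral ganglionic eminence, which lies outside the cortex. No condition was compared, so the comparisons are between cell classes of the same embryos. The libraries held 12825 barcodes with 124318613 unique molecular identifiers (UMIs, each a captured transcript) in embryo 4 and 12289 barcodes with 117679925 UMIs in embryo 5. After filtering, 9932 and 10416 cells remained, with medians of 10056 and 8840 UMIs per cell. The libraries shared 46 barcodes.

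Cells were grouped into classes from clusters made without the 10 genes and the genes of the fixed lists described below, and each cluster was named by its markers. The class of radial glia-like cells (RGC-like) held 1234 cells in embryo 4 and 1328 in embryo 5, and that of intermediate progenitor-like cells (IPC-like) held 888 and 953. The newborn neuron-like class held 1424 and 1413 cells and the migrating neuron-like class 851 and 855. The upper-layer neuron-like class held 580 and 718 cells, the deep-layer neuron-like class 1175 and 1243, and the interneuron-like class of the medial ganglionic eminence (MGE) 696 and 655. A further 21% and 23% of kept cells were in clusters with no name. The newborn and migrating classes are less certain than the others. A stricter naming rule was tried first and gave no newborn or migrating cluster. It refused a name to a cluster whose leading genes held markers of its own class and as many of another. The rule was loosened after the clusters had been seen, and 100% of the cells of those 2 classes, and with them 5 of the 6 comparisons, rest on the looser form. In the summed markers, the newborn list of 6 genes stood at 1274 CPM in the newborn class with Slc17a6 the most abundant at 380 CPM, and at 629 CPM in the migrating class, while the migrating list of 7 genes stood at 9605 CPM in the newborn class and 8131 CPM in the migrating class, with Unc5d the most abundant in both. The migrating list was thus no higher in the migrating class than in the newborn one. The names stand for clusters, and neither the movement of a cell nor its place in the tissue was measured.

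Levels are UMIs of a gene per 1000000 UMIs of a class in an embryo (CPM), and pairs of values are given as embryo 4 and embryo 5. Differences between classes were tested with edgeR on the UMI counts summed per embryo and class, with p-values adjusted by Benjamini-Hochberg over the 15718 genes tested and 2 embryos per class, and a gene is called where its adjusted p is under 0.05. The standard error (SE) given is on the log2 scale. Together the 10 genes made up 0.427% and 0.413% of all UMIs in RGC-like cells, 0.489% and 0.47% in IPC-like cells, 0.994% and 1.02% in newborn, 1.4% and 1.45% in migrating, 1.69% and 1.78% in upper-layer, 1.6% and 1.67% in deep-layer and 1.3% and 1.43% in MGE interneuron-like cells. The share was lowest in progenitors and highest in upper-layer and deep-layer cells, and the embryos lay close together. Of 70 values of the 10 genes in the 7 classes, 68 differed by less than 1.2-fold between the embryos, and the widest ratio was 1.69, for Tubb3 in RGC-like cells.

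From RGC-like to IPC-like cells, 6 of the 10 genes rose and 3 fell, against 48.2% of all genes tested that were called in either direction, 23% higher and 25.2% lower. Their median log2 fold change was 0.28, and that of all genes tested was -0.02. From IPC-like to newborn neuron-like cells all 10 rose, beside 45.4% of all genes called, 22.8% higher and 22.6% lower, with a median of 1.19 against 0.00 over all genes. From newborn to migrating neuron-like cells 5 rose and 1 fell, beside 27.3% of all genes called, 13.5% higher and 13.7% lower, with medians of 0.46 and -0.01. From migrating to upper-layer neuron-like cells 4 rose and none fell, beside 21.7% called, 11.3% higher and 10.3% lower, with medians of 0.22 and -0.00. With the embryo as a replicate block 7 rose in that comparison and none fell, and 4260 genes were called in place of 3405. From migrating to deep-layer cells 5 rose and none fell, beside 43% called, 22.6% higher and 20.4% lower, so that the share of members called was close to that of all genes. The medians there were 0.25 and 0.01. Between MGE interneuron-like and migrating cells 5 were higher and 3 lower in the interneurons, beside 43.8% called, 21.4% higher and 22.4% lower, with medians of 0.20 and 0.02. With the same block 6 rose and 4 fell from RGC-like to IPC-like cells, beside 8474 of the 15718 genes tested that were called, in place of 7574. From newborn to migrating cells it gave 6 that rose and 1 that fell, beside 5309 called in place of 4287. In the interneurons it gave 6 higher and 3 lower, beside 7449 called in place of 6883. The share over all genes includes genes that shaped the clusters, whereas the 10 genes were kept out of the clustering.

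**Figure D1:**
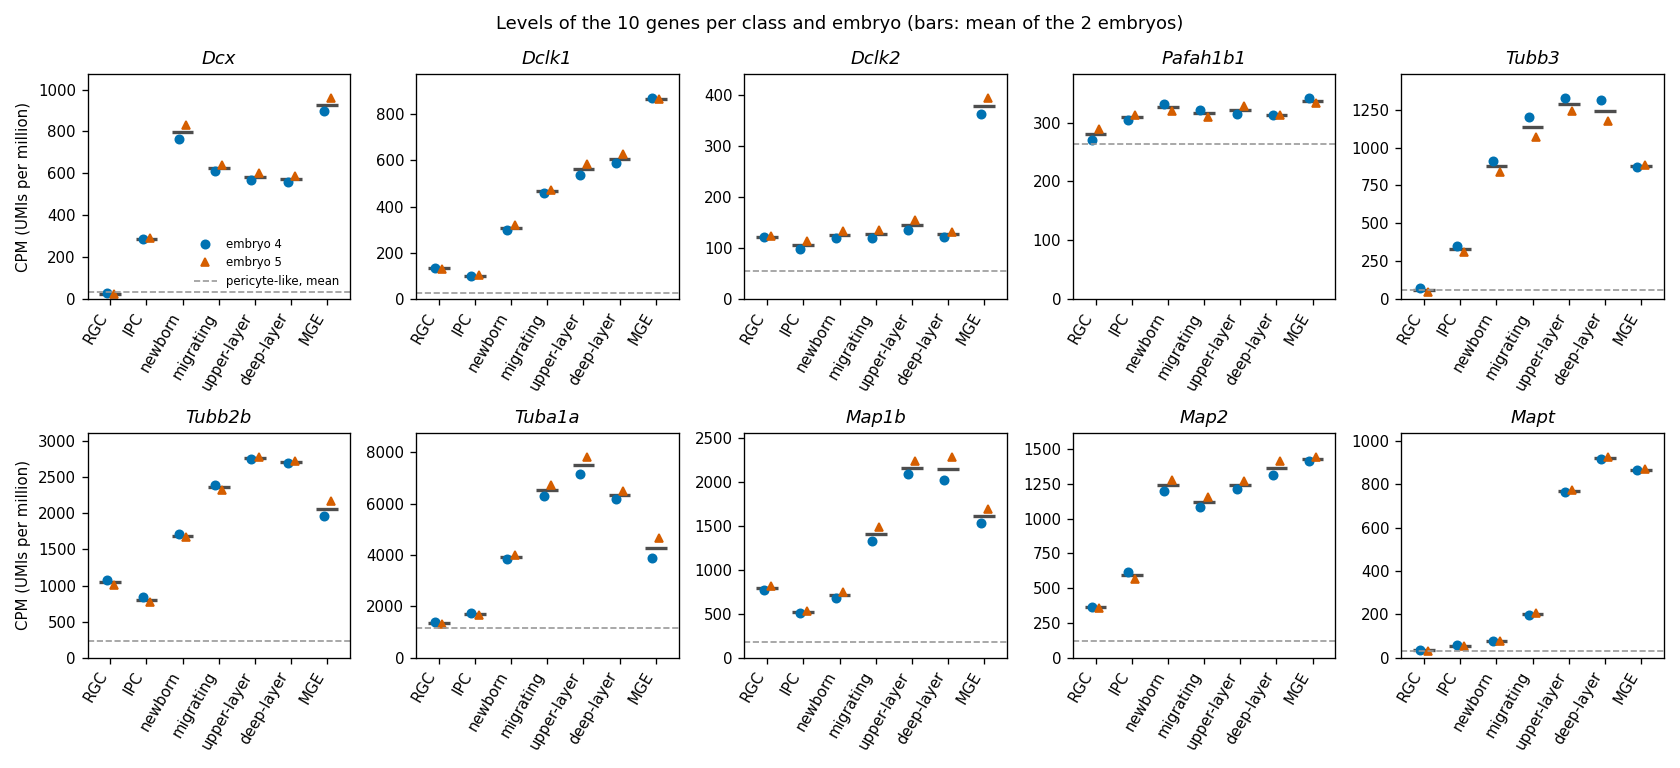
Levels of the 10 genes in CPM (vertical axis, from 0) in 7 cell classes (horizontal axis), with a point for each embryo, a bar for the mean of the 2 embryos and a dashed line for the mean in pericyte-like cells. Dcx is highest in newborn and MGE interneuron-like cells, Mapt in upper-layer, deep-layer and MGE interneuron-like cells, and Pafah1b1 lies between 271 and 341 CPM in every class.

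Dcx, which encodes doublecortin, stood at 27.2 and 21.9 CPM in RGC-like cells, 288 and 289 in IPC-like cells, 762 and 833 in newborn and 611 and 640 in migrating neuron-like cells. RGC-like cells were lowest in both embryos and at the level of pericyte-like cells, which should lack the transcript and had 32 and 35.8 CPM. How much of the RGC-like level came from free RNA was not tested. In the other classes of the fit Dcx stood at 566 and 601 CPM in upper-layer, 558 and 586 in deep-layer and 896 and 958 in MGE interneuron-like cells. By mean level the order was MGE interneuron-like, newborn, migrating, upper-layer, deep-layer, IPC-like and RGC-like, and the upper-layer and deep-layer values overlapped. Dcx rose by 3.60 on the log2 scale from RGC-like to IPC-like cells (SE 0.103, adjusted p = 1.68e-12) and by a further 1.59 to newborn cells (SE 0.091, adjusted p = 2.18e-09). The first of these values starts from that low level, so it cannot be read as an exact fold, and it was 1.09 with doublets kept. On to migrating cells Dcx fell by 0.32 (SE 0.0884, adjusted p = 0.0144), and the migrating values were below the newborn ones in both embryos. That fall lost its call but kept its direction in 6 alternatives. Among them were the removal of the migrating sum of embryo 4 (-0.28) or the newborn sum of embryo 5 (-0.24). With cells of at least 500 detected genes kept the value was -0.05. In addition, at the finer clustering resolution of 2 the value was 0.03 and not called. The differences of upper-layer and deep-layer from migrating cells were -0.08 and -0.04 and did not pass the test, but with cells of at least 500 detected genes kept they were -0.38 and -0.34 and did. Dcx was higher in MGE interneuron-like than in migrating cells by 0.49 (SE 0.089, adjusted p = 0.000376), a value that was 0.31 at resolution 2 and was not called with cells of at least 500 detected genes kept (0.18).

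The gene for doublecortin-like kinase 1, Dclk1, stood at 135 and 131 CPM in RGC-like, 97 and 102 in IPC-like, 298 and 320 in newborn and 458 and 474 in migrating cells. It went on to 538 and 585 CPM in upper-layer, 588 and 628 in deep-layer and 869 and 867 in MGE interneuron-like cells. Unlike Dcx, Dclk1 was lower in IPC-like than in RGC-like cells, and its level was higher in newborn, in migrating and in both upper-layer and deep-layer cells than in the class before each, here the migrating class for both of the latter, without overlap. It fell by 0.38 from RGC-like to IPC-like cells (SE 0.0775, adjusted p = 0.000912) and rose by 1.76 to newborn cells (SE 0.0783, adjusted p = 1.79e-10). In an alternative added once the data had been seen, with the clusters led by cycling genes left out, the value was -0.90. In alternatives set before the data were seen it was -0.79 with doublets kept and -0.65 with cells thinned to 2000 UMIs. It then rose by 0.63 to migrating cells (SE 0.0744, adjusted p = 1.38e-05), and the value was 0.09 and not called when doublets were kept. From migrating cells it rose by 0.29 to upper-layer and by 0.47 to deep-layer cells, and in MGE interneuron-like cells it was 0.82 higher. The upper-layer call was lost without the migrating sum of embryo 4 (0.26) or the upper-layer sum of embryo 5 (0.21), with doublets kept (0.10) and with cells thinned to 2000 UMIs (0.27), while the value was 0.46 with cells of at least 500 detected genes kept.

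Dclk2, the second doublecortin-like kinase, stood at 122 and 123 CPM in RGC-like, 97.8 and 113 in IPC-like, 120 and 133 in newborn and 120 and 135 in migrating cells. Upper-layer cells had 136 and 154 CPM and deep-layer cells 122 and 131. The RGC-like, newborn, migrating and deep-layer values overlapped, while IPC-like cells lay below them and upper-layer cells above them. In MGE interneuron-like cells Dclk2 stood at 364 and 394 CPM, above every excitatory class in both embryos, and at 1.49 above migrating cells on the log2 scale (SE 0.0992, adjusted p = 8.97e-09). Its level was 351 and 386 CPM in interneuron-like cells of the caudal ganglionic eminence (CGE) and 294 and 335 CPM in neurons of the lateral ganglionic eminence type (LGE-type), classes that were not in the fit. All 3 classes with inhibitory markers were thus above all excitatory classes. Dclk2 rose by 0.38 from IPC-like to newborn cells (SE 0.0989, adjusted p = 0.00541), a call lost without the newborn sum of embryo 5 (0.30), without the IPC-like sum of embryo 4 (0.28) and with doublets kept (0.26), while with cells thinned to 2000 UMIs the value was 0.59. With the embryo as a replicate block, 2 more differences of Dclk2 passed the test, a value of -0.18 from RGC-like to IPC-like cells and of 0.21 from migrating to upper-layer cells. The former, -0.17 and not called without the block, was -0.44 and called with cells thinned to 2000 UMIs.

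Pafah1b1 encodes Lis1, a regulator of dynein. Its levels were 271 and 289 CPM in RGC-like, 304 and 313 in IPC-like, 332 and 320 in newborn and 322 and 310 in migrating cells. In upper-layer cells it stood at 315 and 328 CPM, in deep-layer cells at 313 and 312, and in MGE interneuron-like cells at 341 and 334. Pericyte-like cells had 295 and 232 CPM, so Lis1 transcripts were at a like level inside and outside the neuronal lineage. The increases of 0.18 from RGC-like to IPC-like cells (SE 0.0653, adjusted p = 0.0297) and 0.20 to newborn cells (SE 0.0653, adjusted p = 0.0211) passed the test by a narrow margin. Each was lost under several alternatives, the first without the RGC-like sum of embryo 4 (0.13), without the IPC-like sum of embryo 5 (0.16) or of embryo 4 (0.21) and with DESeq2 size factors (0.15), and the second without the newborn sum of embryo 4 (0.19) or of embryo 5 (0.22) and without the IPC-like sum of embryo 4 (0.18). From newborn cells onward no difference of Pafah1b1 passed, with values between -0.01 and 0.07.

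Tuba1a, the main alpha-tubulin gene of newborn neurons, stood at 1397 and 1306 CPM in RGC-like, 1727 and 1659 in IPC-like, 3845 and 3987 in newborn and 6309 and 6722 in migrating cells. Each of these classes was above the one before it in both embryos. Tuba1a stood at 7168 and 7809 CPM in upper-layer, 6186 and 6488 in deep-layer and 3893 and 4653 in MGE interneuron-like cells, so that the interneurons lay near the newborn level. Pericyte-like cells had 1041 and 1299 CPM, close to the RGC-like values. Tuba1a rose by 0.37 from RGC-like to IPC-like cells (SE 0.089, adjusted p = 0.00313), by 1.33 to newborn cells (SE 0.0903, adjusted p = 1.36e-08) and by 0.77 to migrating cells (SE 0.0892, adjusted p = 1.08e-05). With doublets kept the first of these values was -0.02 and the last 0.25, and neither was called, and at resolution 2 the last was -0.12. From migrating to upper-layer cells the difference of 0.22 was not called (adjusted p = 0.09), although with the embryo as a replicate block it passed the test at the same size of 0.22. It passed as well with cells of at least 500 detected genes kept (0.68), at the resolutions 0.5 and 2 (0.33 and 0.50) and with no filter on low counts (0.21). Tuba1a was lower in MGE interneuron-like than in migrating cells, at -0.69 (SE 0.0892, adjusted p = 1.5e-05), and at -0.34 with resolution 2 and -0.33 with cells of at least 500 detected genes kept.

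Tubb3, the neuron-specific class of beta-tubulin, stood at 70.9 and 41.9 CPM in RGC-like, 348 and 308 in IPC-like, 914 and 838 in newborn and 1200 and 1068 in migrating cells. The RGC-like level was that of pericyte-like cells, at 74.1 and 39.6 CPM, with embryo 4 the higher in both classes. Upper-layer cells had 1326 and 1245 CPM and deep-layer cells 1314 and 1175, and MGE interneuron-like cells had 874 and 886. Tubb3 rose by 2.59 from RGC-like to IPC-like cells (SE 0.165, adjusted p = 7.1e-09) and by 1.54 to newborn cells (SE 0.155, adjusted p = 1.06e-06). The first value starts from the pericyte-like level, so it cannot be read as an exact fold, and it was 0.72 with doublets kept. Between newborn and migrating cells the difference was 0.41 and missed the threshold (adjusted p = 0.0598), and with the embryo as a replicate block it was 0.40 and passed. It passed in further alternatives too, the largest value being 0.72 without the newborn cluster nearest to the migrating class, an alternative chosen after seeing the data, and it was -0.14 at resolution 2. The deep-layer difference from migrating cells was 0.22 and not called, but it passed with no filter on low counts and with only the 4 sums compared, at 0.22 in both. Tubb3 was lower in MGE interneuron-like than in migrating cells, at -0.44 (SE 0.151, adjusted p = 0.0271), and this call was lost without the interneuron sum of embryo 4 (-0.43) or of embryo 5 (-0.48), without the migrating sum of embryo 4 (-0.37), with cells of at least 500 detected genes kept (-0.37) and at resolution 2 (-0.25).

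Tubb2b, the other beta-tubulin gene of the set, stood at 1080 and 1009 CPM in RGC-like, 844 and 769 in IPC-like, 1712 and 1671 in newborn and 2393 and 2331 in migrating cells. Unlike Tubb3, it was well above the pericyte-like level of 239 and 219 CPM in radial glia-like cells and lower in IPC-like cells than there. Upper-layer cells had 2755 and 2779 CPM, deep-layer cells 2703 and 2725, and MGE interneuron-like cells 1958 and 2174. Tubb2b fell by 0.33 from RGC-like to IPC-like cells (SE 0.0724, adjusted p = 0.00159), then rose by 1.19 to newborn (SE 0.0733, adjusted p = 4.63e-09) and by 0.52 to migrating cells (SE 0.0723, adjusted p = 7.19e-05). Without the clusters led by cycling genes the fall was -0.20. The step to migrating cells was 0.11 and not called with doublets kept, -0.06 at resolution 2 and 0.79 without the newborn cluster nearest to the migrating class. From migrating cells Tubb2b rose by 0.25 to upper-layer cells, a call lost without any 1 of the 4 sums compared (0.27 and 0.23 without the upper-layer sum of embryo 4 and of embryo 5, 0.26 and 0.24 without the migrating sums), with doublets kept (0.05) and with cells thinned to 2000 UMIs (0.16). With cells of at least 500 detected genes kept the value was 0.48. Tubb2b rose by 0.29 to deep-layer cells (SE 0.0721, adjusted p = 0.00466), a call lost with cells thinned to 2000 UMIs (0.24). It was lower in MGE interneuron-like than in migrating cells, at -0.27. That call was lost without the interneuron sum of embryo 4 (-0.19), with cells of at least 500 detected genes kept (-0.15) and at resolution 2 (-0.08). Without embryo 4, which left no test, the value was -0.17.

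The tubulin genes can also be set side by side as shares of the UMIs of their family, with the limits that 3′ counts are not corrected for differences in capture between genes and that the assignment of reads among the near-identical Tuba1a, Tuba1b and Tuba1c, and between Tubb2a and Tubb2b, is uncertain. Tuba1a took 64.1% and 54.2% of alpha-tubulin UMIs in RGC-like cells, 84.5% and 78.7% in IPC-like cells and 97.1% and 96.5% in newborn cells. Tuba1b, a widely expressed alpha-tubulin gene, took 32.8% and 42.2%, then 14.3% and 19.5%, then 2.25% and 2.89% in the same classes. The alpha-tubulin UMIs thus went almost wholly to Tuba1a by the newborn class, and from there on, in the 5 neuronal classes of the fit, the Tuba1a share stayed between 96.5% and 98.5%. The RGC-like and IPC-like classes each include a cluster led by cycling genes, and these shares include it. Among beta-tubulins, Tubb3 took 2.15% and 1.37% in RGC-like, 12.3% and 11.9% in IPC-like, 19.6% and 19.2% in newborn and 19.6% and 18.8% in migrating cells. Tubb5, the other abundant beta-tubulin gene, took 52% and 52.3% in RGC-like, 52.7% and 52.8% in IPC-like, 40.7% and 39.7% in newborn and 37.7% and 36.7% in migrating cells. The Tubb2b share was 32.8% and 32.9% in RGC-like and 39.1% and 40.9% in migrating cells. So the beta-tubulin pool stayed mixed in neurons, while the alpha-tubulin pool did not. Tubb2a made up 1.68% and 1.72% of beta-tubulin UMIs in migrating cells and 8.56% and 8.19% in MGE interneuron-like cells.

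**Figure D2:**
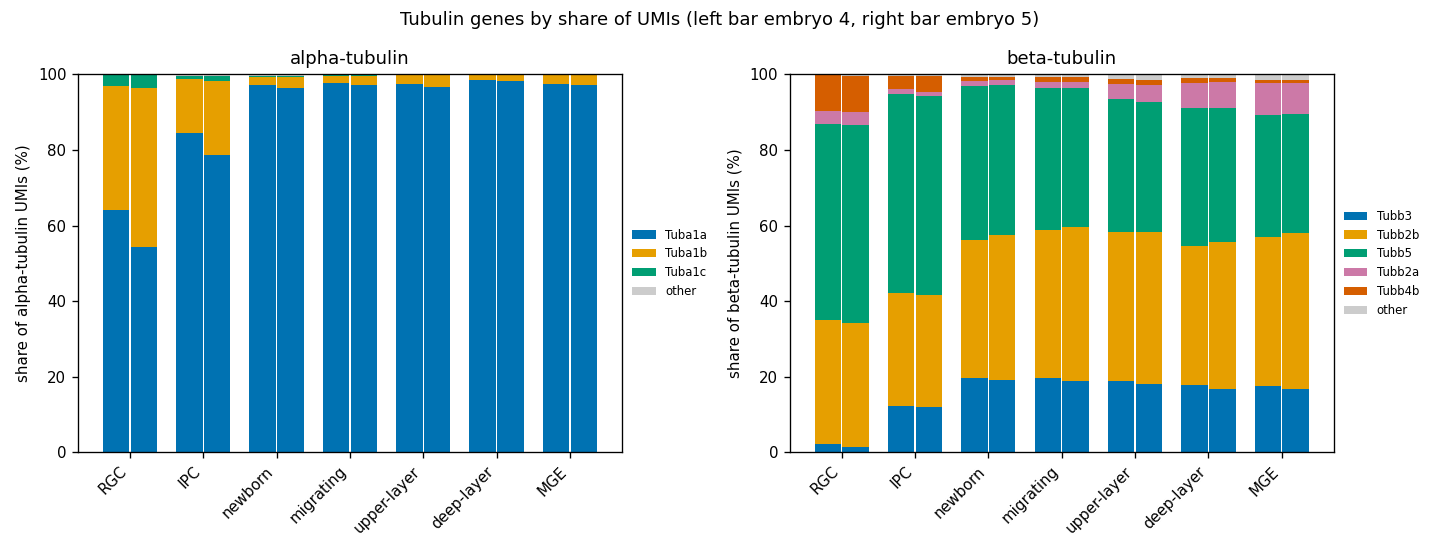
Shares of alpha-tubulin UMIs (left panel) and beta-tubulin UMIs (right panel) in percent (vertical axes, 0 to 100) taken by each tubulin gene in 7 cell classes (horizontal axes), with the left bar of each pair for embryo 4 and the right bar for embryo 5. Tuba1a takes 64.1% and 54.2% of alpha-tubulin UMIs in RGC-like cells and 97.8% and 97.2% in migrating cells, while Tubb5, Tubb2b and Tubb3 share the beta-tubulin UMIs in every neuronal class.

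Map1b, which encodes a microtubule-associated protein of growing axons, stood at 769 and 819 CPM in RGC-like, 510 and 526 in IPC-like, 676 and 749 in newborn and 1322 and 1485 in migrating cells. It reached 2085 and 2230 CPM in upper-layer and 2014 and 2276 in deep-layer cells, with 1530 and 1693 in MGE interneuron-like cells. The lowest level was in IPC-like cells, and the upper-layer and deep-layer values overlapped. Map1b fell by 0.57 from RGC-like to IPC-like cells (SE 0.095, adjusted p = 0.000153), rose by 0.58 to newborn cells (SE 0.0951, adjusted p = 0.000142) and by 1.01 to migrating cells (SE 0.0953, adjusted p = 1.3e-06). That last step was 0.34 with cells of at least 500 detected genes kept, 0.23 and not called with doublets kept, and -0.25 at resolution 2. The step to newborn cells was 1.46 at resolution 2, 1.05 with doublets kept, 0.35 both with cells of at least 500 detected genes kept and at resolution 0.5, and 0.26 without the newborn cluster nearest to the migrating class. From migrating cells Map1b rose by 0.64 to upper-layer (SE 0.0946, adjusted p = 0.000143) and by 0.70 to deep-layer cells (SE 0.0945, adjusted p = 2.55e-05), and the values were 1.59 and 1.64 with cells of at least 500 detected genes kept and 0.98 and 1.15 at resolution 2. Its difference between MGE interneuron-like and migrating cells was 0.12 and not called, and with the embryo as a replicate block it was called at 0.12. It was called as well with cells of at least 500 detected genes kept (0.99) and at resolutions 0.5 and 2 (0.37 and 0.53).

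Map2, whose protein is a marker of dendrites, stood at 366 and 358 CPM in RGC-like, 620 and 568 in IPC-like, 1200 and 1279 in newborn and 1085 and 1154 in migrating cells. Upper-layer cells had 1217 and 1275 CPM, deep-layer cells 1313 and 1413, and MGE interneuron-like cells 1416 and 1443. The newborn and upper-layer values overlapped. Map2 rose by 0.76 from RGC-like to IPC-like cells (SE 0.075, adjusted p = 8.47e-07) and by 1.18 to newborn cells (SE 0.0753, adjusted p = 6.64e-09). The first value was 0.23 with doublets kept. The newborn to migrating difference of -0.11 was not called, and the migrating to upper-layer difference of 0.18 was called only with the embryo as a replicate block, at 0.18, among the alternatives run. Map2 rose by 0.37 from migrating to deep-layer cells (SE 0.0742, adjusted p = 0.00087) and was 0.27 higher in MGE interneuron-like cells, a call lost without the migrating sum of embryo 4 (0.21).

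Mapt, which encodes the axonal protein tau, had the widest range over the later steps. It stood at 36 and 32.3 CPM in RGC-like, 56.3 and 54.6 in IPC-like, 77.4 and 74.5 in newborn and 197 and 205 in migrating cells. Its level was 765 and 773 CPM in upper-layer, 915 and 925 in deep-layer and 865 and 869 in MGE interneuron-like cells. Pericyte-like cells had 42.1 and 17 CPM, so the RGC-like level was not above theirs in embryo 4. Mapt rose by 1.44 from newborn to migrating cells (SE 0.0698, adjusted p = 1.47e-09), then by 1.96 to upper-layer (SE 0.0686, adjusted p = 7.46e-11) and by 2.28 to deep-layer cells (SE 0.0691, adjusted p = 2.14e-12). It was 2.03 higher in MGE interneuron-like than in migrating cells (SE 0.0689, adjusted p = 4.24e-12). With doublets kept the newborn to migrating value turned to -0.23 and was called as a fall, and the upper-layer value was 1.16. The earlier increases were 0.74 from RGC-like to IPC-like cells (SE 0.075, adjusted p = 1.07e-06) and 0.58 to newborn cells (SE 0.0725, adjusted p = 1.11e-05). With doublets kept the first of them turned to -0.80 and was called as a fall, and the other was 1.97. With cells of at least 500 detected genes kept the step to newborn cells was 0.20 and not called. That step was 1.06 at resolution 2 and 0.33 without the newborn cluster nearest to the migrating class. Thinning cells to 2000 UMIs ended the call of the first (0.35).

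Because the border between newborn and migrating classes depends on how clusters were named, the values of the clusters behind them are given on their own. The newborn class consisted of a cluster led by Slc17a6 and Kif26b, with 756 and 731 cells, and a cluster led by Unc5d and Cdh8, with 668 and 682 cells, and the migrating class of a cluster led by Nrp1 and Frmd4a. Tuba1a stood at 3089 and 3077 CPM in the first, 4740 and 4987 in the second and 6309 and 6722 in the third. Mapt stood at 66.2 and 65 CPM, then 90.7 and 84.9, then 197 and 205. Dcx stood at 760 and 852 CPM, then 764 and 813, then 611 and 640. Tuba1a and Mapt were higher from cluster to cluster in that order in both embryos, whereas Dcx overlapped between the first and second clusters and was lower in the third. These differences between clusters were not tested. At resolution 2 the newborn class was a cluster of 207 and 191 cells, the migrating class took in a shallow cluster of 73 and 51 cells whose nearest match at resolution 1 had been left without a class, and 2 of the 10 genes were called between newborn and migrating cells in place of 6. With doublets kept 1 was called, which was Mapt at -0.23, against 1.44 in the main fit. There too the clusters behind the classes differed. A cluster of 828 and 815 cells led by Cdh8, Kif26b and Slc17a6 then got no class, and a cluster of 288 and 383 cells led by Tfap2d was in the newborn class. The RGC-like class held 3 clusters in place of 2 and the deep-layer class 1 in place of 2. Values given with doublets kept, with another cell filter or at another resolution thus reflect classes named anew, and the part of the doublets alone was not tested. The order of classes from newborn to migrating is therefore not stable in these results. Over the alternatives the number of the 10 genes called in that step ranged from 1 to 7.

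Shares of cells with at least 1 UMI show the same genes per cell, with exact binomial 95% intervals that cover counting error only. Depth differed between classes, so each cell was also thinned to 2000 UMIs, which left out 18 and 14 RGC-like cells, 13 and 10 IPC-like, 7 and 1 newborn and 7 and 3 migrating cells. At that depth Dcx was seen in 5.51% of RGC-like cells of embryo 4 (4.3% to 6.94%) and 4.19% of embryo 5 (3.17% to 5.41%), beside 3.92% (0.478% to 13.5%) and 4.35% (0.531% to 14.8%) of pericyte-like cells, so the RGC-like share cannot be told from that of cells that should lack the transcript. In IPC-like cells the thinned share was 35.1% and 35.5%, in newborn cells 78.8% and 81.2%, and in migrating cells 68.6% and 70%. The newborn intervals of 76.5% to 80.9% and 79.1% to 83.2% lay above the migrating ones of 65.4% to 71.7% and 66.8% to 73%. Unthinned, Dcx was seen in 23.4% and 17% of RGC-like cells at median depths of 11326 and 10080.5 UMIs and in 17.6% and 19.6% of pericyte-like cells at median depths of 10549 and 10408.5 UMIs. The unthinned shares were 70.5% and 64.3% in IPC-like, 99.2% and 99% in newborn and 97.9% and 98.1% in migrating cells.

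For Mapt the thinned share was 14.7% and 14.9% in newborn, 29.9% and 32.7% in migrating, 72.8% and 71.8% in upper-layer and 82.9% and 83.9% in deep-layer cells, beside 3.92% and 2.17% in pericyte-like cells. The share was higher in migrating than in newborn cells and higher in upper-layer and in deep-layer than in migrating cells, with no overlap of the intervals. Unthinned, Mapt was seen in 43.7% and 37.8% of newborn cells at median depths of 9299 and 7821 UMIs, in 73% and 73.8% of migrating cells at 10045 and 8633 UMIs, and in 25.5% and 17.4% of pericyte-like cells. In upper-layer and deep-layer cells it was seen unthinned in nearly all cells, at 97.8% and 98.5% and at 98.8% and 98.9%. Tubb3 was seen after thinning in 15.1% and 8.07% of RGC-like, 45.7% and 40.1% of IPC-like, 78.8% and 78.5% of newborn and 88.4% and 86.9% of migrating cells. Its pericyte-like share was 11.8% (4.44% to 23.9%) and 10.9% (3.62% to 23.6%), and since these intervals hold the RGC-like shares, the latter cannot be told from them. Unthinned, the Tubb3 shares were 49.7% and 29.5% for RGC-like and 54.9% and 32.6% for pericyte-like cells.

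**Figure D3:**
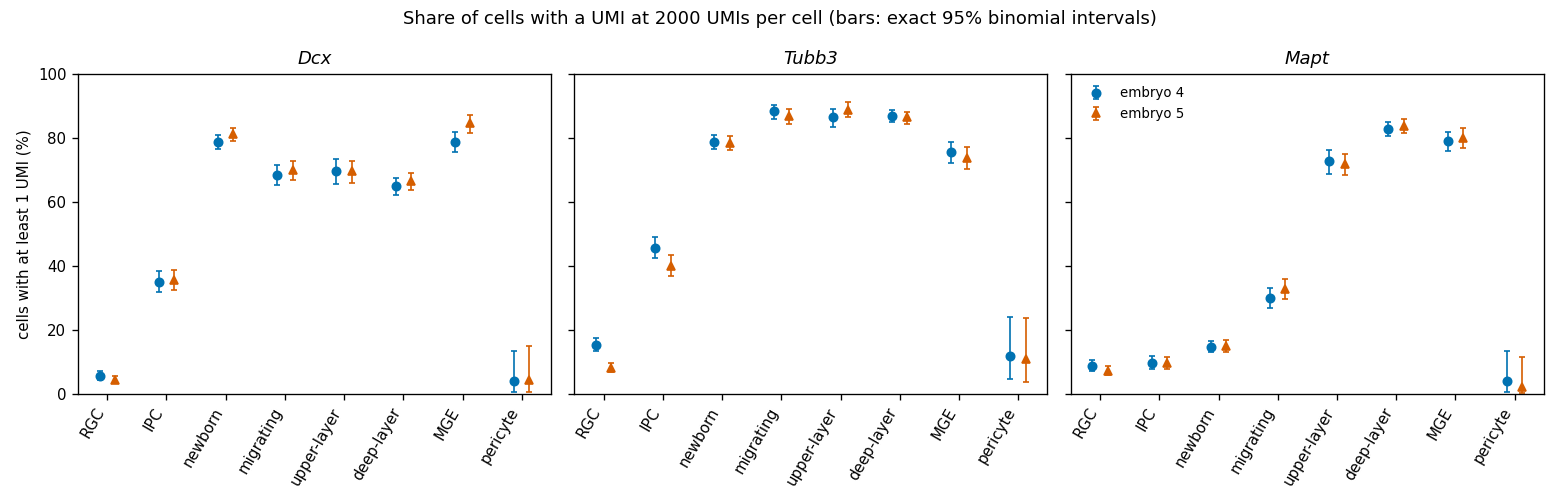
Percent of cells with at least 1 UMI of Dcx, Tubb3 and Mapt (vertical axis, 0 to 100) after thinning each cell to 2000 UMIs, by cell class (horizontal axis) and embryo (points), with exact 95% binomial intervals. Dcx peaks in newborn cells among the excitatory classes, at 78.8% and 81.2%, while Mapt goes from 14.7% and 14.9% there to 82.9% and 83.9% in deep-layer cells.

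The 10 genes were also described in neuronal classes outside the fit, as values with no test. CGE interneuron-like cells had 822 and 971 CPM of Dcx and 509 and 463 CPM of Mapt, and LGE-type neurons had 540 and 643 CPM of Dcx and 784 and 602 CPM of Mapt. Cajal-Retzius neuron-like cells, early-born neurons of the marginal zone, had 253 and 194 CPM of Dcx, below every other neuronal class. Their Tubb3 level was 1439 and 1268 CPM, and their Mapt level was 774 and 829 CPM. Their Tubb2b level, at 2216 and 2200 CPM, was below that of migrating, upper-layer and deep-layer cells. The deep-layer class held 2 clusters that differed in Tuba1a, with 5151 and 5131 CPM in the one led by Hs3st4 and 7343 and 7810 CPM in the one led by Kctd8.

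Other genes of the microtubule system were read from fixed lists. Their counts stand beside 48.2%, 45.4%, 27.3%, 21.7%, 43% and 43.8% of all genes called in the 6 comparisons, in the order given above. Log2 fold changes under the alternatives were kept for the 10 genes only. The counts and fold changes of these lists thus come from the main fit alone. This includes the step from newborn to migrating cells, which was not stable for the 10 genes. Of 17 other tubulin genes 12 were tested, and Tuba3a, Tuba3b, Tuba8, Tubal3 and Tubb1 had too few UMIs. From RGC-like to IPC-like cells 3 of the 12 rose and 5 fell, with a median of -0.83. Tuba4a stood at 0.488 and 0.283 CPM in the former class and 7.68 and 8.16 in the latter (log2 fold change 4.35), and Tubb2a at 114 and 106, then 33.4 and 27.5 CPM (-1.80). The RGC-like level of Tuba4a rests on few UMIs, so its value cannot be read as an exact fold. From IPC-like to newborn cells 5 rose and 4 fell (median -0.29), Tuba1b among the latter with -1.63, and Tubb4a among the former with 1.97. From newborn to migrating cells 5 rose and none fell (median 0.36), with Tubb2a at 0.88 and Tubb4b at 0.70. From migrating to upper-layer cells 4 rose and 2 fell (median 0.25), and to deep-layer cells 6 rose and 1 fell (median 0.35). Tubb2a had the same direction in both, at 1.57 and 2.34, and Tuba4a the opposite one, at -2.35 and -3.23. Tuba4a, a minor alpha-tubulin here, was thus highest in newborn and migrating cells, with 20.5 and 20.5 and 18.3 and 20.2 CPM. It had 0 UMIs in both MGE interneuron-like sums, which is at least 29.1-fold lower than in migrating cells in embryo 4 and at least 29.4-fold lower in embryo 5, with a floor of 3 counts per library. Of the 12, 4 were higher and 4 lower in the interneurons, with a median of -0.47, which is also the median with Tuba4a at its bound. Tubb6, called higher there, had 2 and 1 UMIs in the migrating sums, so no fold is given.

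The list of 20 genes of tubulin folding and modification was tested in full. From RGC-like to IPC-like cells 9 rose and 3 fell (median 0.29), and from IPC-like to newborn cells 10 rose and 2 fell (median 0.39). Ttll7, a tubulin polyglutamylase gene, rose by 2.04 in the first, and Ttl, the gene of tubulin tyrosine ligase, by 1.03 in the second. From newborn to migrating cells 8 rose and 1 fell (median 0.18). The one that fell was Agbl4, which encodes a deglutamylase and stood at 387 and 435 CPM in IPC-like, 267 and 287 in newborn and 17.6 and 20 in migrating cells. It fell by 3.85 (SE 0.148, adjusted p = 2.26e-10), while Vash2 and Svbp, which encode a tubulin detyrosinase and its partner, rose by 0.92 and 0.71. From migrating cells 4 rose and 2 fell to upper-layer (median 0.06) and 6 rose and 1 fell to deep-layer cells (median 0.15), and 7 were higher and 4 lower in MGE interneuron-like cells (median 0.00). Ttll7 rose by 0.92 to deep-layer cells, and Ttll11 was 1.23 higher in the interneurons.

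Of 25 other microtubule-associated proteins, tip proteins and stathmins 24 were tested, and Dclk3 was not. From RGC-like to IPC-like cells 14 rose and 7 fell (median 0.42), from there to newborn cells 17 rose and 2 fell (median 0.50), and on to migrating cells 12 rose and 3 fell (median 0.20). From migrating cells 9 rose and 1 fell to upper-layer (median 0.27) and 12 rose and 2 fell to deep-layer cells (median 0.24), and 8 were higher and 5 lower in MGE interneuron-like cells (median 0.17). Stmn2, whose protein binds tubulin in growth cones, stood at 79.7 and 60.3 CPM in IPC-like, 167 and 189 in newborn, 599 and 652 in migrating, 1822 and 2025 in upper-layer and 1981 and 2082 in deep-layer cells. It was higher in upper-layer and deep-layer cells than in any other class of the fit, and it rose by 1.46, 1.85, 1.64 and 1.79 in the steps from IPC-like to newborn, newborn to migrating, and migrating to upper-layer and to deep-layer cells. Stmn4 rose by 1.74 from newborn to migrating cells, and Map6 and Map1a by 1.43 and 1.26 from migrating to deep-layer cells. Stmn3 rose by 1.14 and 1.69 in the earliest steps.

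Among 20 genes around Lis1, dynein and Cdk5, all tested, 8 rose and 5 fell from RGC-like to IPC-like cells (median 0.21), 10 rose and 3 fell to newborn cells (median 0.28) and 6 rose and 1 fell to migrating cells (median 0.16). From migrating cells 3 rose and 1 fell to upper-layer (median 0.10) and 5 rose and 3 fell to deep-layer cells (median 0.05), and 3 were higher and 6 lower in MGE interneuron-like cells (median 0.06). These last counts, 4, 8 and 9 of 20, were close to the shares of all genes called, 21.7%, 43% and 43.8%, and say nothing particular of the list. Nde1, a Lis1 partner also known from mitosis, stood at 109 and 99.2 CPM in RGC-like, 37.2 and 46.7 in IPC-like and 5.35 and 5.59 in newborn cells, and fell by 1.27 and then fell by 2.81 in those steps. Cdk5r1, which encodes the Cdk5 activator p35, went the other way, from 10.8 and 8.71 CPM to 35.3 and 29.2 and then 118 and 112. Its increases of 1.77 and 1.95 passed the test. Dync1i1, a dynein intermediate chain gene, stood at 24.6 and 15.8 CPM in migrating, 306 and 288 in upper-layer, 814 and 862 in deep-layer and 13.4 and 13 in MGE interneuron-like cells. It was thus high in upper-layer and deep-layer cells and low in the interneurons, and the steps from migrating cells were 3.89 and 5.45. Dynll2 was 1.18 higher and Dynll1 was lower, at -1.29, in MGE interneuron-like cells.

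Of 15 transport kinesin genes, all tested, 8 rose and 2 fell from RGC-like to IPC-like cells (median 0.24), 10 rose and 2 fell to newborn cells (median 0.49) and 5 rose and 2 fell to migrating cells (median 0.19). The later counts were 6 and 4 to upper-layer (median 0.28), 7 and 5 to deep-layer (median 0.11) and 5 and 5 in MGE interneuron-like cells (median 0.15). Kif21b stood at 7.81 and 7.93 CPM in RGC-like, 152 and 151 in IPC-like, 334 and 342 in newborn and 240 and 230 in migrating cells, and like Dcx it was highest in newborn cells of the excitatory lineage. It rose by 4.31 and 1.28 and then fell by 0.49. Kif5a, a neuronal transport kinesin, rose by 1.27, 2.38 and 0.56 in the same steps. Kif26a fell by 2.20 from IPC-like to newborn cells and rose by 4.73 from migrating to deep-layer cells. Kif21a fell by 0.60 from newborn to migrating cells, and from there by 0.71 to upper-layer and 1.07 to deep-layer cells. Kifap3 rose by 0.46 and 0.93 in those last steps. In MGE interneuron-like cells Kif2a was 1.45 and Kifap3 0.64 higher than in migrating cells, and Kif21b was lower, at -1.14.

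The 20 spindle microtubule genes were all tested and 19 of them fell while 1 rose both from RGC-like to IPC-like cells (median -1.01) and from IPC-like to newborn cells (median -4.41). Kif4 and Hmmr fell by 5.52 and 5.04 in the latter. The RGC-like class included a cluster led by cycling genes, with 398 and 519 cells, and the IPC-like class one with 192 and 227 cells. How much of the falls of these genes and of Nde1 came from the share of cycling cells was not tested. In the later comparisons none rose, and the counts that fell were 1 to migrating (median -0.13), 1 to upper-layer (median -0.17), 2 to deep-layer (median -0.22) and 1 in MGE interneuron-like cells (median 0.14). Of 10 kinase and scaffold genes that act on microtubule proteins, 4 rose and 1 fell to IPC-like (median 0.12), 6 rose to newborn (median 0.45), 2 rose to migrating (median 0.08) and 4 rose to upper-layer cells (median 0.09). The counts to IPC-like and to migrating cells were near the 48.2% and 27.3% of all genes called. In deep-layer cells 3 were higher and 2 lower than in migrating cells (median -0.04), and in MGE interneuron-like cells 2 were higher and 2 lower (median -0.09), both near the 43% and 43.8% of all genes called. Mapk10, which encodes the neuronal kinase JNK3, stood at 161 and 161 CPM in migrating and 712 and 783 in MGE interneuron-like cells, a difference of 2.14 (SE 0.0897, adjusted p = 4.47e-11).

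Over the 14 sums of 7 classes and 2 embryos, the genes most like Dcx among 15717 others by Pearson correlation of log2(CPM + 1) were Gdap1l1 (r = 0.997), Zfp821 (0.994), Polb (0.991), Soga3 (0.989) and Nsg2 (0.988). The sums share libraries and lineage and are not independent, so these are descriptions. Of the set itself, Tubb3 (0.952, rank 116) and Map2 (0.936, rank 182) came nearest to Dcx, then Pafah1b1 (0.888, rank 452). Tuba1a (0.772), Dclk1 (0.698), Mapt (0.653) and Tubb2b (0.626) were further away, and Map1b (0.420) and Dclk2 (0.365) were the least alike.

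The genes are spread over the genome. On the RefSeq build GRCm38.p6, Dcx lies on chromosome X, Dclk1 and Dclk2 on 3, Pafah1b1 and Mapt on 11, Tubb2b and Map1b on 13, Tubb3 on 8, Tuba1a on 15 and Map2 on 1. Their spans differ widely, from 3347 bases for Tubb2b and 3655 for Tuba1a to 296766 for Dclk1. Promoter windows of 250 bases were at hand for 8 of the 10 genes, with 10 windows between them, and not for Tubb2b and Mapt. They are shown since all 10 genes rose from IPC-like to newborn neuron-like cells, and the 3 printed are those that lie wholly before the gene, for Tubb3 (chr8:123411303-123411552, plus strand), Tuba1a (chr15:98953502-98953751, minus strand) and Map1b (chr13:99516603-99516852, minus strand). Capitals mark matches to 3 motifs, searched on both strands. The E-box CAGATG, which reads CATCTG on the other strand, was found in Map1b alone among the members, in 1 of 10 windows, and in 14.4% of all 32851 windows of this length. The E-box with the letters CAGCTG on either strand was found in none of the 10 windows and in 13% of all. The last motif, TATAA or on the other strand its reverse complement TTATA, was added after the sequences had been seen and was found in 5 of the 10 windows, those of Tubb3, Tuba1a, Map1b and Dcx, and in 22.8% of all. The 2 windows of Dcx overlap and hold the same site, so by gene the count is 4 of 8. In Tubb3 the matches on the 2 strands overlap. A match is a description of the letters and says nothing of binding.
Tubb3: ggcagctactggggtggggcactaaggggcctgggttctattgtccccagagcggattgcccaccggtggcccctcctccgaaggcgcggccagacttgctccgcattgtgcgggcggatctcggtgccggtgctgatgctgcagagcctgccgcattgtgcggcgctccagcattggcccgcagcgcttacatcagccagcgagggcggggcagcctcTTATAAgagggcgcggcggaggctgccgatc
Tuba1a: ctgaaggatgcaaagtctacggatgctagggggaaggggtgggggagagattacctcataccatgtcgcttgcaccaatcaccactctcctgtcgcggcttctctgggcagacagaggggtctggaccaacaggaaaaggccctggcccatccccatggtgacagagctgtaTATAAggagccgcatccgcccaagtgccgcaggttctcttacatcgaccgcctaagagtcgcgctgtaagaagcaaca
Map1b: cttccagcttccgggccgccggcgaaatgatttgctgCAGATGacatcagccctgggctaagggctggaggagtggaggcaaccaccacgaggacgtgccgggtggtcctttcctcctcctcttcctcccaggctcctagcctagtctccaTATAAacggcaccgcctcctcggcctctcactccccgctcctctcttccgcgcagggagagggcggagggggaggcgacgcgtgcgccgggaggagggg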

How the data were processed

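The authors made 10x Genomics 3′ v3.1 libraries and deposited UMI counts from Cell Ranger on mm10, 1 matrix per embryo and not normalized. The labels name version 7.0.0 and the matrix headers 7.1.0, and whether intron reads were counted is not named. Barcodes with fewer than 1000 detected genes or more than 10% mitochondrial counts were left out (1772 and 174 in embryo 4, 765 and 56 in embryo 5). Doublets were scored after Scrublet's procedure, and 947 and 1052 were removed at a rate of 0.8% per 1000 cells. The rest were clustered with scanpy 1.11.5 (2000 variable genes without any gene of the lists, 30 components, 20 neighbours, Leiden with leidenalg 0.10.2 at resolution 1). A cluster took the class with the highest mean log2 ratio of its markers against all other cells if that mean was at least 0.5, at least 3 markers were seen in 10% of its cells, and its 10 leading genes held no more markers of another class than of its own. A cluster with none of its class's markers among the leading genes was left without a class if its median UMI count was under 0.333 of the embryo's median in either embryo. This kept a cluster of 60 and 42 cells (lowest ratio 0.328) out of the migrating class, but at resolution 2 a cluster led by much the same genes (73 and 51 cells, ratio 0.336) entered it. A first form of the rule also refused clusters within 0.25 of another class, and ties between own and other markers where the leading genes held any. It gave no newborn or migrating cluster and was loosened after the clusters had been seen.

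UMIs were summed per embryo and class. In R 4.3.3, 1 edgeR 4.0.16 quasi-likelihood fit (TMM, filterByExpr) covered 14 sums of 7 classes, with 6 contrasts. Each SE is the absolute log2 value divided by the root of the F statistic. The script was tested on simulated data. Alternatives were DESeq2 1.42.0 (size factors, Wald test), no filter on low counts, a replicate block, only the 4 sums compared, leaving out sums or embryos, other cell filters, doublets kept, resolutions 0.5 and 2, thinning to 2000 UMIs, and 2 chosen after seeing the data (newborn cells without the cluster near the migrating class, progenitors without clusters led by cycling genes). As a check of pairing, the deviations of embryo 4 from the class mean, in log2 CPM across the genes tested, correlated between classes at 0.072 to 0.201 over 21 pairs of classes, and the sums of an embryo come from 1 animal.

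The members and lists were chosen with earlier results of these data known. Named genes are all 10 members, from each other list and contrast up to 3 genes with the largest absolute log2 fold change among those called, and the 5 genes most correlated with Dcx. Tubb5 falls outside this rule and was named after its values were seen. Sequences and positions are from RefSeq on GRCm38.p6.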

Additional observations from a re-analysis of the deposited data

Results flagged for a closer look

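A small cluster led by the haemoglobin genes Hbb-bt, Hbb-bs and Hba-a1, with 166 cells in embryo 4 and 114 in embryo 5, was outside the comparisons and carried high tubulin levels. Its mean over the 2 embryos was 1291 CPM for Tubb3, 3546 CPM for Tubb2b and 8285 CPM for Tuba1a. The embryos had 1346 and 1235 CPM of Tubb3, 3506 and 3586 of Tubb2b and 7761 and 8809 of Tuba1a. The Tubb2b and Tuba1a means were above those of each of the 7 classes in the fit, and 8 of the 10 genes were above the pericyte-like level in both embryos. Median depth in the cluster was 3595 and 2631 UMIs, and its leading genes also held Mt3 and Fabp7. What these cells are was not tested.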

How the results depend on the processing

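Of the log2 fold changes of the 10 genes under all alternatives, 950 kept their direction and, where there was a test, their side of the threshold, 51 lost the call, 27 gained it and 31 changed sign, most of the last from values near 0. The remaining 1, Map1b from migrating to deep-layer cells without embryo 4, was 0.70 as with both embryos and is counted apart because the embryos barely differed there. With other cell filters, doublets kept or another resolution the classes were named anew from other clusters. The cause was not tested. From RGC-like to IPC-like cells, keeping doublets gave -0.02 for Tuba1a, not called, and -0.80 for Mapt, called as a fall. From newborn to migrating cells, resolution 2 gave 0.03 for Dcx, 0.01 for Pafah1b1, -0.14 for Tubb3, -0.06 for Tubb2b, -0.12 for Tuba1a and -0.25 for Map1b, with 2 of the 10 genes and 2492 of all genes called. In the same step, keeping doublets gave -0.03 for Dclk2, 0.02 for Pafah1b1 and -0.23 for Mapt, with 1478 of all genes called. Mapt, as a fall, was the 1 of the 10 genes called there. Keeping cells of at least 500 detected genes gave -0.02 for Dclk2 in this step and 2430 genes called. Dclk2 was there also -0.07 at resolution 0.5 and -0.02 without the newborn cluster close to the migrating class, an alternative chosen after seeing the data, and between -0.04 and 0.14 when 1 sum was left out. Pafah1b1 was -0.04 to 0.01 with a sum left out and 0.00 with at most 5% mitochondrial counts. From migrating to upper-layer cells, keeping doublets gave -0.03 for Pafah1b1 and -0.04 for Tubb3, with 2 of the 10 genes and 1248 of all genes called, and Pafah1b1 was -0.03 at resolutions 0.5 and 2. From migrating to deep-layer cells, Tuba1a was -0.06 with at most 5% mitochondrial counts, -0.09 with doublets kept and -0.01 to 0.10 with a sum left out, where Dclk2 was -0.02 to 0.17. Between MGE interneuron-like and migrating cells, Pafah1b1 was -0.02 with no filter on low counts and at resolution 0.5, -0.03 with doublets kept, -0.01 at resolution 2 and -0.01 to 0.04 with a sum or an embryo left out. Thinning to 2000 UMIs, which leaves fewer counts, gave 4542, 4203, 2149, 1436, 3741 and 4117 genes called in the 6 comparisons, in the order of the report, in place of 7574, 7133, 4287, 3405, 6756 and 6883, and 2 of the 10 genes called from migrating to upper-layer cells. In that comparison the number of the 10 genes called was 2 to 3 when 1 sum was left out, where the lone sum of a class is assumed to vary like the others, and 7 with the embryo as a replicate block. The block changed no call of the 10 genes other than those given in the report. Leaving out an embryo leaves 1 sum per class and no test. Levels in CPM kept within 1 standard deviation of the embryos in 409 cases and moved further in 181. Shares of tubulin UMIs kept within 1 standard deviation in 723 cases and moved further in 221. With 2 embryos, animals are few, and small differences between classes may be missed.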
